A study of Homo sapiens with 16 samples.

Results

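The 39 genes described here encode kinases, cyclins, checkpoint proteins, kinetochore subunits, motors and spindle proteins of mitosis. They were chosen by name and role, with earlier results of these data known, from the 63187 genes of the deposited count table. Each of the 39 symbols was found once, and all 39 genes passed the filter on low counts that left 19530 genes for testing. Their estimated counts ran from 442 (CDC25C) to 27815 (TOP2A) per library. Counting error alone (Poisson) corresponds to an SD of 0.010 (TOP2A) to 0.060 (CDC25C) on the log2 scale. This was a median of 29.0% of the SD that remained between libraries after batch and group, and over 50% of it in CDC25C, NDC80, SPC25, CDCA8 and KIF11.

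The study sequenced poly(A) RNA of SK-N-BE(2), an established line of human neuroblastoma that carries extra copies of MYCN, in 16 libraries that form 4 groups of 4. WT libraries came from cells labelled wild type, and the other 3 groups from cells transfected with a form of HIF-2α, the hypoxia-inducible transcription factor subunit encoded by EPAS1: the full-length protein (FL), ΔN-CTAD (labelled NCTAD) or Δc-IDR (labelled cIDR). The replicate number, 1 to 4, is also given in the labels as a batch, and every batch held 1 library of each group. All 16 cultures were kept at 21% oxygen in medium with 10% serum. Expression vector, construct boundaries and harvest time are not given in the sources used here, nor is any mock or empty-vector treatment of WT, so that transfection itself and HIF-2α cannot be told apart in comparisons with WT. The host cells also kept their own EPAS1. Nothing in the labels says that replicates came from separate cultures, so p-values measure the spread between these libraries only.

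Library totals were 38.6 to 56.1 M (mega) estimated counts. EPAS1 was at 13.0 to 28.1 CPM (counts per 1 M, TMM-scaled) in the 4 libraries labelled WT and at 1319 to 5849 CPM in the 12 transfected ones. All 8 neuroblastoma markers examined (among them HAND2, GATA3 and MYCN) were at 69.4 CPM or more in every library. In batch 2 against the other batches, 3 of the 8 were called higher and 3 lower by edgeR. Over all tested genes 27.7% were called higher and 26.1% lower there. Of 5 fibroblast markers, COL1A2 and COL3A1 stayed under 1 CPM in every library. The summed level of the 5 was 69.5 to 72.4 CPM in the 4 libraries of batch 2 and 26.9 to 35.5 CPM in the other 12, through LUM, DCN and COL1A1. Of the fibroblast markers 3 of the 4 that passed the filter were called higher in batch 2 (27.7% of all tested genes). Endothelial markers (3 examined) summed to 1.15 to 2.15 CPM in batch 2 and 0.125 to 0.892 CPM in the other 12 libraries, with PECAM1 and CDH5 under 1 CPM in every library. Both of those that passed the filter, VWF and CDH5, were called higher in batch 2 (median 2.13). Immune markers (4 examined) summed to 1.40 to 1.64 CPM in batch 2 and 0.866 to 1.41 CPM elsewhere, and CD14, the 1 that passed the filter, was called higher (0.49). PTPRC, CD3E and LYZ were under 1 CPM in every library. Epithelial markers summed to 0.255 to 0.775 CPM in batch 2 and 0.217 to 0.655 CPM elsewhere, with no call. The part of these markers in the results was not tested.

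Cells enter mitosis when CDK1, bound to a B-type cyclin and activated by a CDC25 phosphatase, phosphorylates its targets. Kinetochores then attach chromosomes to the spindle, and unattached kinetochores hold the anaphase-promoting complex (APC/C) in check until its activator CDC20 is freed, after which securin and cyclin B are degraded. Transcripts of these proteins are made mainly in G2 and M phase, and many of their genes carry a CHR element (TTTGAA or a close relative) and CCAAT boxes near the start, bound by the DREAM and MMB complexes and by NF-Y. The level of such genes in a bulk sample therefore depends on the share of cells in G2 and M as well as on transcription per cell. Fewer cells of that kind and less RNA per cell cannot be told apart in these data.

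The promoters were examined because the genes of this set are known to be transcribed together. RefSeq promoter sequences (build GRCh38.p14) were matched by symbol for 34 of the 39 genes. AURKA, TTK, UBE2C, BIRC5 and TPX2 had no entry. The 34 genes had 40 entries, since some have several starts, and a gene was counted if any of its entries held a motif. In the 250 bases before the start, TTTGAA on either strand (TTCAAA in reverse) was present in 20 of the 34 genes (58.8%), against 16.1% of the 27305 genes with an entry. CCAAT on either strand (ATTGG in reverse) was present in 28 of 34 (82.4%, against 37.0%), and both motifs were present in 18 of 34 (52.9%, against 5.79%). TTTAAA was in 12 genes (35.3%, against 13.5%) and ACGTG, the core of the hypoxia response element, in 12 (35.3%, against 21.7%). The E2F-type strings TTTGGCGC and TTTCCCGC were each found in 1 gene, NUSAP1 and CENPA respectively. A match is a description of letters, not evidence of a bound site. The 250 bases before the start are shown for 4 genes that carry both motifs. These lay among the genes farthest from the other batches in batch 2. TTTGAA and CCAAT, or their reverse complements, are in capitals. CDC20 is at chr1:43358731-43358980 (plus strand), CDC25C at chr5:138331805-138332054 (minus strand), SPC25 at chr2:168890431-168890680 (minus strand) and PLK1 at chr16:23678639-23678888 (plus strand), each printed 5′ to 3′ on the gene's own strand. CDC25C had 4 entries, and the one shown is the 1 that held both motifs. The other 3 genes shown had 1 entry each.
CDC20: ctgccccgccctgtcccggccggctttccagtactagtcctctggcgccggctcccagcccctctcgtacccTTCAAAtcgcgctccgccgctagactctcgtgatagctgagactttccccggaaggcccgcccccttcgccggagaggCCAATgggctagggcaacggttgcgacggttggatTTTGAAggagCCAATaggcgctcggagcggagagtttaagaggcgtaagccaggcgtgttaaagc
CDC25C: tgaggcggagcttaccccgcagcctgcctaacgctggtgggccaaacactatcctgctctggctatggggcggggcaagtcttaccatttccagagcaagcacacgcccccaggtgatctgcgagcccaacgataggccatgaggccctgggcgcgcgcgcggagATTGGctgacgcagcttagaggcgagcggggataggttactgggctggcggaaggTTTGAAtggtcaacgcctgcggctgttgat
SPC25: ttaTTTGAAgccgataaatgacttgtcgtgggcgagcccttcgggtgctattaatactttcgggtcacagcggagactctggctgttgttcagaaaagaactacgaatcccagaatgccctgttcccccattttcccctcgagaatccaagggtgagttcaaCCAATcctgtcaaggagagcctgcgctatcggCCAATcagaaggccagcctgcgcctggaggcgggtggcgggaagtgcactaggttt
PLK1: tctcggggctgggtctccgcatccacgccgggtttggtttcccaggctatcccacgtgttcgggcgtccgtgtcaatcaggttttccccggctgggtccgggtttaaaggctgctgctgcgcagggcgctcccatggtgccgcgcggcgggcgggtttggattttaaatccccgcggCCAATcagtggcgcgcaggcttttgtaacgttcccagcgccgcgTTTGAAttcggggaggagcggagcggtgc
CDC20 held 2 copies of each motif, the nearer TTTGAA 65 bases and the nearer CCAAT 55 bases before the start. In the CDC25C entry shown the TTTGAA lay 30 bases and the CCAAT 85 bases before its start, and in PLK1 they lay 29 and 73 bases before it. SPC25 had its TTTGAA 247 bases upstream, beyond its CCAAT copies at 56 and 88 bases.

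Levels were compared between genes in TPM, which is scaled for transcript length. The most abundant of the 39 transcripts was UBE2C, the E2 enzyme of the APC/C, at a median of 341 TPM over the 16 libraries (273 to 403). PTTG1 (securin, the inhibitor of separase) followed at 243 TPM (229.5 to 283) and CCNB1 (cyclin B1) at 232 TPM (198 to 280), and these ranges overlapped. PRC1, which bundles antiparallel microtubules of the midzone, was at 174 TPM (160 to 199), and the kinase PLK1 at 152 TPM (131 to 176). The lowest were CENPE, a kinetochore kinesin, at 9.91 TPM (6.90 to 11.5) and CDC25C, the phosphatase that activates CDK1, at 9.62 TPM (8.76 to 14.2), and their ranges overlapped too. No gene of the set was near 0 in any library.

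**Figure D1:**
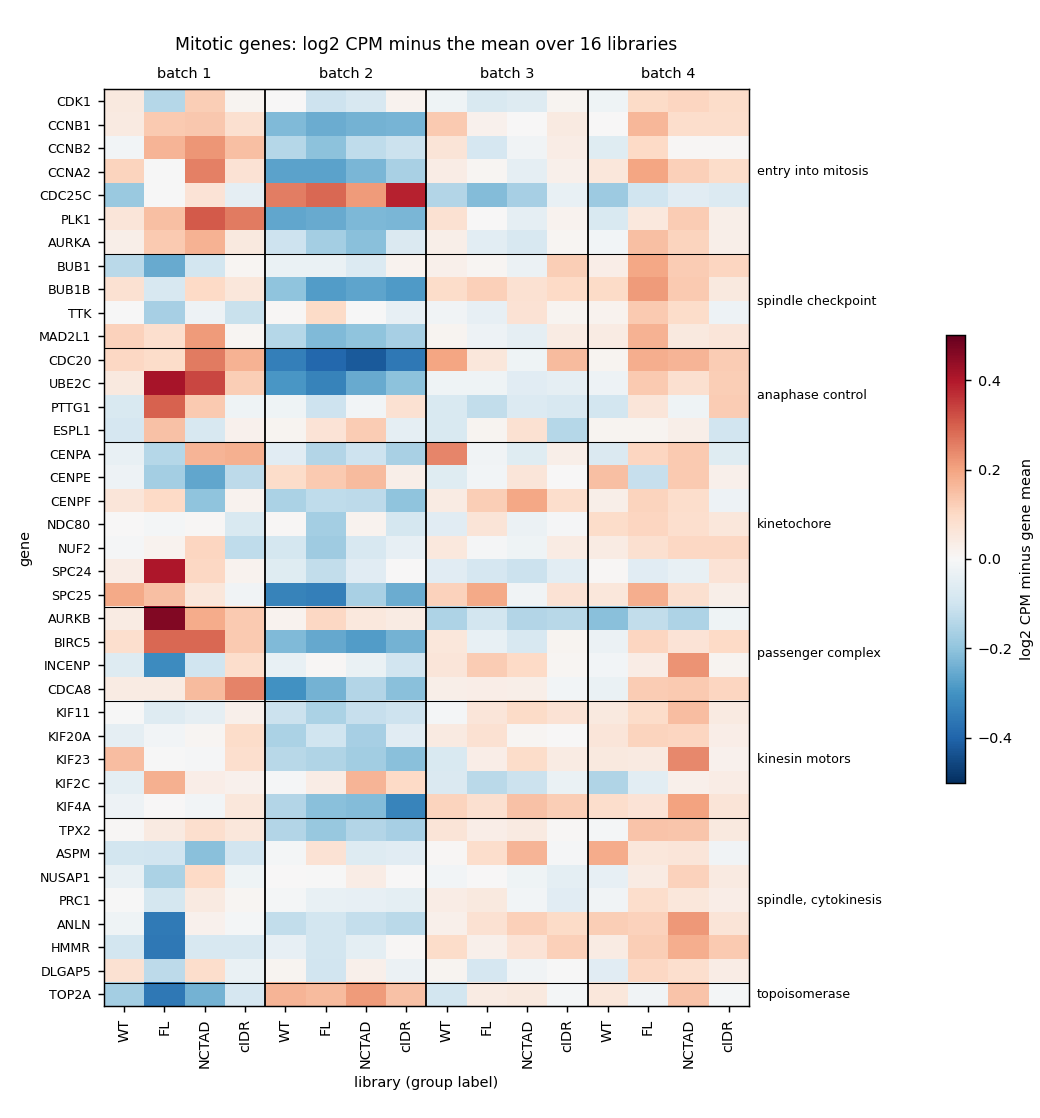
Level of each of the 39 genes in each of the 16 libraries, as log2 CPM minus that gene's mean over the libraries (colour scale from −0.5 to 0.5), ordered by batch and then by group, with genes ordered by role. Libraries of batch 2 share one pattern across groups, blue for CDC20, CCNB1 and 14 others that lie below all other libraries and red for CDC25C and TOP2A.

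The comparison of the constructs with WT asked whether forms of HIF-2α change the expression of mitotic genes. In none of the 6 comparisons between groups was any of the 39 genes called at an adjusted p under 0.05 (edgeR quasi-likelihood test, Benjamini-Hochberg over 19530 genes). Nor did any reach an unadjusted p under 0.05, as 1.14%, 1.42% and 1.37% of all tested genes did against WT and 0.886% (NCTAD against FL), 0.906% (cIDR against FL) and 0.609% (cIDR against NCTAD) did between constructs. DESeq2 and limma called none of the 39 either. Few genes of any kind were called: the background was 0.0102% for FL against WT, 0.0256% for NCTAD against WT, 0.0102% for cIDR against WT and 0% for each comparison between constructs. These fits had no batch term, so their SEs and p-values, here and below, include the spread between batches. Leaving out 1 library in such a fit also makes the groups hold unequal batches. The coefficient of variation between libraries that edgeR estimated over all genes was 0.245, and 0.108 with the batch as a block. With the batch as a block the background was 0.102%, 0.456% and 0.486% against WT and 0%, 0.0307% and 0.00512% between constructs. Again none of the 39 was called. In that fit 1 of the 39 had an unadjusted p under 0.05 in FL against WT (background 5.11%), AURKB, and 2 in cIDR against FL (3.68%), ESPL1 and HMMR. The median log2 difference over the 39 genes was 0.0073 for FL, 0.034 for NCTAD and 0.016 for cIDR against WT, beside medians over all tested genes of 0.014, 0.019 and 0.0097. The widest 95% bound of any of the 39 genes was 1.37-fold for FL, 1.34-fold for NCTAD and 1.35-fold for cIDR, and 1.23-fold, 1.18-fold and 1.202-fold with the block. Differences from WT beyond these bounds lay outside the 95% interval of each of the 39 genes in the fit concerned.

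Single genes show how close the groups were. CDK1, the master kinase of mitosis, averaged 115 ± 2.70 CPM (SD, n = 4 as for the means below) for WT. Its mean was 111 ± 8.35 CPM with FL, 117 ± 8.89 with NCTAD and 118 ± 3.16 with cIDR. CDC20 was at 78.7 ± 12.1, 78.4 ± 12.9, 79.4 ± 15.5 and 80.7 ± 13.1 CPM in the same order. Its SD within a group was larger than any difference between group means, and the library of batch 2 was the lowest of each group. CCNB1 averaged 220 ± 21.99 CPM for WT, 225 ± 27.9 for FL, 221 ± 24.3 for NCTAD and 221 ± 21.97 for cIDR.

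For FL against WT, the highest log2 difference was that of AURKB, the kinase of the chromosomal passenger complex. Its 4 WT libraries were at 61.8, 60.8, 54.0 and 52.0 CPM in batches 1 to 4 and its FL libraries at 82.9, 64.5, 56.4 and 55.2 CPM. The groups overlapped, although FL was above WT within each batch. The difference was 0.18 ± 0.12 (SE, edgeR adjusted p 1), and without FL replicate 1, the highest library, it was 0.026. UBE2C followed at 0.14 ± 0.15 (adjusted p 1) and was −0.012 without the same library. At the low end were CENPE at −0.079 ± 0.095 and CENPA, the histone H3 variant of centromeres, at −0.071 ± 0.10 (adjusted p 1 for both).

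For NCTAD against WT, 34 of the 39 genes had a difference above 0 (median 0.034), beside a median of 0.019 over all tested genes. The share of all tested genes above 0 was not computed, nor was the like share for cIDR against NCTAD below. The 39 genes share libraries, so their signs are not independent. UBE2C at 0.11 ± 0.15 and CDCA8 (borealin, a passenger complex subunit) at 0.11 ± 0.11 were highest. ASPM, a spindle pole protein, at −0.029 ± 0.085 and SPC25, a subunit of the NDC80 complex, at −0.028 ± 0.13 were lowest (edgeR adjusted p 1 for all 4 genes). In the fit without a batch term, leaving out a single library turned 3 of these signs. ASPM was at 0.028 without WT replicate 4 and 0.032 without NCTAD replicate 1, SPC25 at 0.034 without WT replicate 1 and 0.021 without NCTAD replicate 2, and UBE2C at −0.0063 without NCTAD replicate 1. For cIDR against WT the range was from ASPM at −0.068 ± 0.085 and CENPE at −0.058 ± 0.095 to CDCA8 at 0.10 ± 0.11 and CDC25C at 0.12 ± 0.15 (adjusted p 1). CDC25C was at 10.8, 14.7, 11.1 and 10.9 CPM in the WT libraries and at 11.96, 16.1, 12.01 and 11.8 CPM in the cIDR libraries of batches 1 to 4. Each cIDR library was above the WT library of its batch, by 0.14, 0.13, 0.11 and 0.11 on the log2 scale, while the groups as a whole overlapped. In the fit with the batch as a block its difference was 0.12 ± 0.066 and again not called.

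Between constructs the differences were as small. NCTAD against FL ran from AURKB at −0.12 ± 0.12 and SPC24, another NDC80 complex subunit, at −0.076 ± 0.10 to HMMR, a spindle assembly protein, at 0.099 ± 0.098 and ANLN, the scaffold protein anillin of the cleavage furrow, at 0.12 ± 0.10. SPC24 turned to 0.065 and AURKB to 0.026 without FL replicate 1, in a fit without a batch term. Within batches 1 to 4, NCTAD minus FL was −0.28, −0.049, −0.054 and −0.033 for AURKB on the log2 scale. For cIDR against FL, ESPL1 (separase, the protease that cuts cohesin) was lowest at −0.12 ± 0.066, followed by AURKB at −0.10 ± 0.12, while CDK1 at 0.089 ± 0.070 and HMMR at 0.11 ± 0.098 were highest. AURKB turned to 0.047 without FL replicate 1 and HMMR to −0.025 on log2(TPM + 1). ESPL1 was at 109, 103, 99.5 and 99.5 CPM in FL and at 100.3, 95.6, 89.4 and 92.2 CPM in cIDR, lower in cIDR within each batch, and the groups overlapped. For cIDR against NCTAD, 30 of the 39 genes were below 0 (median −0.025, all tested genes −0.0080), from ESPL1 at −0.10 ± 0.066 and the checkpoint kinase TTK at −0.074 ± 0.070 to CDC25C at 0.050 ± 0.15 and the checkpoint kinase BUB1 at 0.078 ± 0.087. CDC25C turned to −0.071 without cIDR replicate 2 and −0.0077 without NCTAD replicate 3. The adjusted p was 1 for each of these genes by edgeR.

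Each construct library can be set against the WT library with the same batch number. In FL against WT, 3 genes were higher in all 4 batches (CENPF, AURKB and the cytokinesis kinesin KIF20A), where 5.33% of all tested genes were, and 0 were lower in all 4 (background 3.94%). In NCTAD 4 genes were higher than WT in all 4 batches (PTTG1, ESPL1, AURKB and ANLN, background 8.85%) and 0 lower (6.48%). In cIDR 5 were higher (CDC25C, BUB1, AURKB, the depolymerizing kinesin KIF2C and HMMR, background 10.5%) and ASPM was lower (7.12%). AURKB was above WT in every batch for each construct, but the 3 comparisons share the same WT libraries. No gene of the set had groups that did not overlap in any of the 6 comparisons, for which the background was 0.814%, 1.43% and 1.47% against WT and 0.707%, 0.717% and 0.712% between constructs.

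Medians over the 39 genes moved with the batch more than with the construct. FL minus WT had a median of −0.0079, −0.025, −0.021 and 0.11 in batches 1 to 4, NCTAD minus WT 0.066, 0.0013, −0.023 and 0.096, and cIDR minus WT 0.028, −0.0097, −0.010 and 0.054. In batch 4 the numbers of genes above WT were 31, 35 and 25 of 39 for FL, NCTAD and cIDR, and in batch 3 they were 18, 14 and 18. The share of all tested genes above WT was not computed. The medians over all tested genes in batches 1 to 4 were 0.054, 0.00052, −0.017 and 0.048 for FL, 0.047, 0.0037, −0.016 and 0.020 for NCTAD, and between −0.0027 and 0.041 for cIDR. The 3 medians of a batch share 1 WT library. Batch 1 held the widest spread in FL minus WT, with an SD over genes of 0.19 and values from −0.33 for ANLN to 0.42 for AURKB, against an SD of 0.062 in batch 2. Over all tested genes, which were not matched to the set in count level, these SDs were 0.64 and 0.50.

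Other genes of the mitotic programme that are not in the set were examined from lists: 34 further effectors, 28 kinetochore genes, 17 condensin and cohesin genes, 17 APC/C genes and 12 regulators, 108 in all, each of which was tested. None was called in any of the 6 comparisons between groups by edgeR, with or without the batch as a block.

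How much of each gene's variation lay between batches was computed for the balanced layout of 4 batches by 4 groups. Over the 39 genes the median share of the sum of squares of log2 CPM was 70.5% between batches, 5.05% between groups and 24.2% in the remainder. The same medians over all tested genes were 53.8%, 7.85% and 33.5%. The batch share was above the group share in 36 of the 39 genes (92.3%), as in 87.3% of all tested genes, and it was highest for CDC20 (91.9%), CCNB1 (91.1%), BUB1B (90.4%) and KIF4A (89.2%). ESPL1 (11.4%), DLGAP5 (15.04%) and NUSAP1 (19.5%) had the lowest batch shares, and in these 3 genes the group share was larger, at 41.2%, 26.6% and 31.3%. The median SD of the 39 genes over the 16 libraries was 0.12 on the log2 scale, against 0.25 for all tested genes. The tested genes were not matched to the set in count level.

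The second comparison set batch 2 against batches 1, 3 and 4, in a model with group and batch. The genes lower in batch 2 included the cyclins CCNA2, CCNB1 and CCNB2, the kinase PLK1, 2 of 4 spindle checkpoint genes (BUB1B and MAD2L1) and 2 of 4 genes of anaphase control (CDC20 and UBE2C). CDC25C, CENPE and TOP2A were higher. Of the 39 genes, 23 were called (59.0%), 20 lower and 3 higher, where the background over all tested genes was 53.9% in either direction, 26.1% lower and 27.7% higher (edgeR, adjusted p under 0.05). The share called was thus near the background, while the direction was not balanced as in all genes. The median difference was −0.16 over the set and 0.035 over all tested genes, and the median absolute difference was 0.16 against 0.29. Differences in the set were therefore smaller than the median over all tested genes, which were not matched to the set in count level. All 4 libraries of batch 2 lay below the other 12 in 16 of the 39 genes (background 14.6%) and above them in 2 (background 14.4%). On deposited TPM values, limma called 16 of the 39 genes (41.0%, background 43.1%), 13 of them lower (33.3%, background 15.4%): BUB1B (−0.16), CCNB2, AURKA, NUF2, CENPE, KIF11, KIF20A and ANLN lost the call and KIF2C gained it. Batch 2 is 1 batch against 3, the labels do not say what a batch consisted of, and the p-values measure only the spread of libraries within batches.

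**Figure D2:**
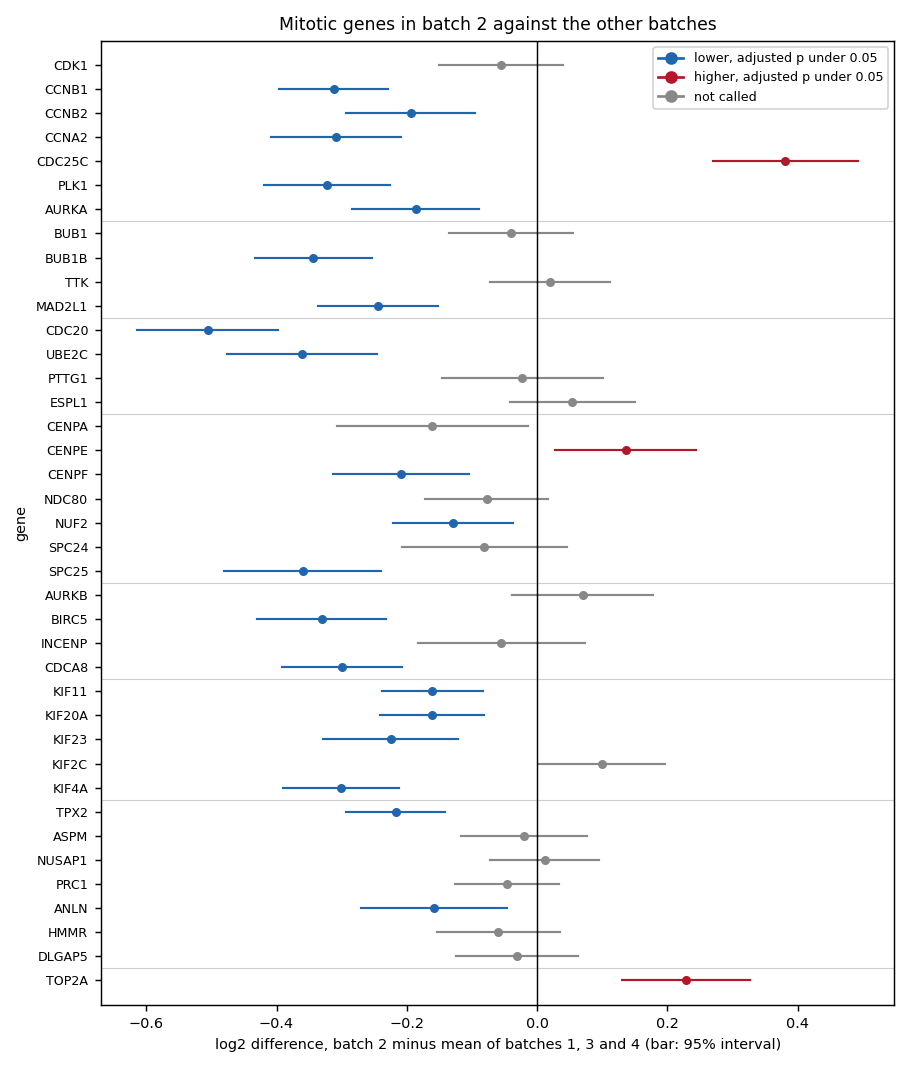
Log2 difference of batch 2 from the mean of batches 1, 3 and 4 (horizontal axis) with its 95% interval for each of the 39 genes (vertical axis, ordered by role). Of the 39, 20 genes are called lower (blue), with CDC20 the lowest at −0.51, and CDC25C, CENPE and TOP2A are called higher (red).

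Among the 7 genes of entry into mitosis, 5 were lower (background 26.1%), CDC25C was higher (27.7%) and CDK1 was not called. Each role holds few genes. CCNB1 was at 189, 185, 187 and 188 CPM in batch 2 (libraries in the order WT, FL, NCTAD, cIDR here and below), and at 221 to 247 CPM (median 233) in the other 12. The 2 sets of libraries did not overlap, and the difference was −0.31 ± 0.039 (SE), 1.24-fold lower (edgeR adjusted p 9.91e-06). PLK1, which drives mitotic entry and bipolar spindle formation, was at 177, 178, 182 and 181 CPM in batch 2 and at 201 to 262 CPM (median 221) elsewhere, 1.25-fold lower (−0.32 ± 0.045, adjusted p 2.68e-05 by edgeR). CDC25C ran the other way, at 14.7, 15.1, 14.3 and 16.1 CPM in batch 2 and 10.6 to 12.9 CPM (median 11.6) elsewhere. All 4 libraries of batch 2 were above the other 12, by 0.38 ± 0.052 or 1.30-fold (edgeR adjusted p 2.20e-05). CDK1, the partner of cyclin B1, was at 115, 107, 109 and 117 CPM in batch 2 and at 104 to 126 CPM (median 116) elsewhere. These libraries overlapped, and the difference of −0.056 ± 0.044 was not called (adjusted p 0.309). CCNA2 (cyclin A2), CCNB2 and the spindle pole kinase AURKA were also called lower, at −0.31, −0.19 and −0.19.

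**Figure D3:**
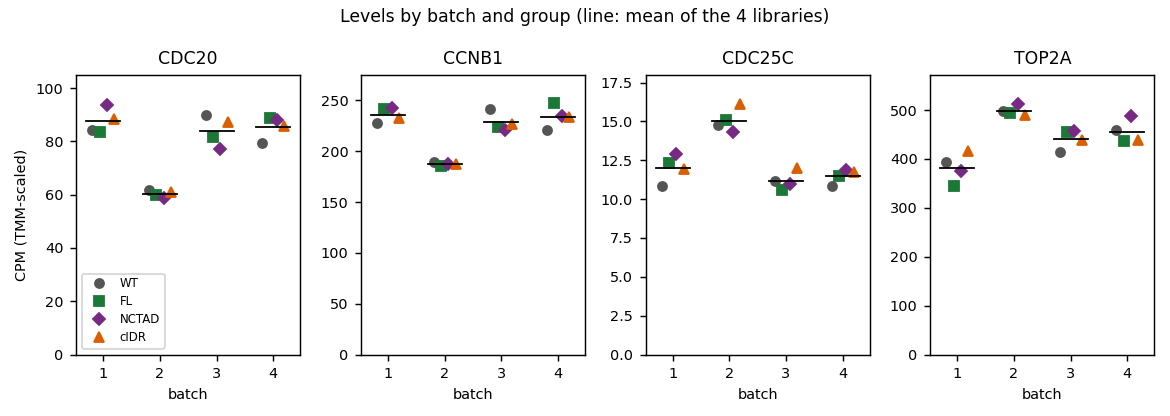
CPM (vertical axes from 0) of CDC20, CCNB1, CDC25C and TOP2A in the 4 batches (horizontal axes), 1 point per library by group, with the mean of the batch as a bar. CDC20 and CCNB1 are lower in all 4 libraries of batch 2 than in the other 12, and CDC25C and TOP2A are higher.

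Of the 4 spindle checkpoint genes, BUB1B and MAD2L1 were lower (background 26.1%) and the kinases BUB1 and TTK were not called. BUB1B encodes BUBR1, a subunit of the complex that inhibits CDC20. It was at 119, 112, 114 and 112 CPM in batch 2 and at 129 to 158 CPM (median 146) elsewhere, with no overlap (−0.34 ± 0.042, 1.27-fold lower, edgeR adjusted p 7.89e-06). MAD2L1 (MAD2, another subunit of that complex) was at 136, 129, 130 and 134 CPM against 146 to 174 CPM (median 155), again without overlap (−0.24 ± 0.043, edgeR adjusted p 0.000222). BUB1 at −0.040 ± 0.044 and TTK at 0.020 ± 0.043 overlapped the other batches (adjusted p 0.475 and 0.714). BUB1 was called lower without batch 1 (−0.099) and was above 0, not called, without batch 4 (0.017) and on log2(TPM + 1) (0.021).

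CDC20, the target of that checkpoint, had the largest difference of the 39 genes in size on counts. On log2(TPM + 1) CDC25C was slightly larger in size (0.44 against −0.43). CDC20 was at 61.8, 59.7, 58.6 and 61.1 CPM in batch 2 and at 77.2 to 93.8 CPM (median 86.5) elsewhere. The 4 libraries of batch 2 lay close together and below all others, 1.42-fold lower (−0.51 ± 0.051, edgeR adjusted p 1.00e-06). The difference was −0.45, −0.50, −0.55 and −0.51 within these groups, in that order. UBE2C was at 118, 115, 121.5 and 126 CPM in batch 2 and 139 to 193 CPM (median 151) elsewhere, 1.28-fold lower (−0.36 ± 0.054, edgeR adjusted p 4.81e-05). The APC/C substrate PTTG1 at −0.023 ± 0.058 and the separase gene ESPL1 at 0.054 ± 0.045 were not called (adjusted p 0.763 and 0.324), and their libraries overlapped.

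The 7 kinetochore genes were divided, with 3 lower (background 26.1%), 1 higher (27.7%) and 3 not called. SPC25 was at 13.0, 12.9, 14.6 and 13.8 CPM in batch 2 and at 16.2 to 18.7 CPM (median 17.3) elsewhere, below all other libraries (−0.36 ± 0.056, 1.28-fold, edgeR adjusted p 7.92e-05). Its partners in the NDC80 complex differed less: NUF2 was called at −0.13, while NDC80 at −0.077 ± 0.044 (adjusted p 0.156) and SPC24 at −0.081 were not. CENPF, a large protein of the outer kinetochore, was at −0.21 ± 0.049 (edgeR adjusted p 0.00225), and on log2(TPM + 1) at −0.40, beyond SPC25 on that scale (−0.24). It was at 218, 224, 222.5 and 212 CPM in batch 2, and NCTAD replicate 1, at 212 CPM, lay among them, while the other 11 libraries were higher. CENPE was called higher at 0.14 ± 0.051 (adjusted p 0.0342). Its libraries overlapped, at 61.6, 63.2, 64.6 and 59.1 CPM against 48.3 to 64.1 CPM (median 57.0), and the call was lost under 18 of 30 alternative settings, at values from 0.084 without batch 1 to 0.19 on log2(TPM + 0.1).

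The chromosomal passenger complex corrects attachments and sets the cleavage plane. In it BIRC5 (survivin) and CDCA8 were lower (background 26.1%) and AURKB and INCENP were not called. BIRC5 was at 146, 142.5, 140.5 and 145 CPM in batch 2 and at 161 to 208 CPM (median 179.5) elsewhere (−0.33 ± 0.046, 1.26-fold lower, edgeR adjusted p 2.84e-05, and −0.21 on log2(TPM + 1)). CDCA8 was at 36.7, 38.4, 40.9 and 39.2 CPM against 44.2 to 53.8 CPM (median 46.6), also without overlap (−0.30 ± 0.043, edgeR adjusted p 3.37e-05). AURKB at 0.070 ± 0.051 (adjusted p 0.260) and its activating scaffold INCENP at −0.055 ± 0.060 (adjusted p 0.464) both overlapped the other batches. AURKB was called higher without batch 1, at 0.19, and without FL replicate 1, at 0.10, and INCENP was called lower without batch 1, at −0.10.

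Of the 5 kinesins 4 were lower (background 26.1%). KIF4A, a chromokinesin, was at 51.2, 48.9, 48.7 and 45.0 CPM in batch 2 and at 55.7 to 65.1 CPM (median 59.5) elsewhere, with no overlap (−0.30 ± 0.042, 1.23-fold lower, edgeR adjusted p 2.40e-05). KIF23, a centralspindlin motor, was at −0.22 ± 0.048 (edgeR adjusted p 0.00120), and KIF11, the motor that separates spindle poles, at −0.16 ± 0.036 (edgeR adjusted p 0.00165), both below all other libraries. KIF20A was called lower at −0.16. KIF2C was at 0.10 ± 0.045 (adjusted p 0.0753), not called, and was called higher without batch 1 (0.14) or FL replicate 1 (0.12).

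Of the 7 spindle and cytokinesis proteins 2 were lower, a share near the 26.1% of all tested genes, and 5 were not called. TPX2, the activator of AURKA on spindle microtubules, was at 237, 230, 236.5 and 234 CPM against 260 to 289 CPM (median 271), below all other libraries (−0.22 ± 0.036, 1.16-fold, edgeR adjusted p 0.000122). ANLN was called at −0.16 ± 0.052 (adjusted p 0.0194) although FL replicate 1 lay below the batch 2 libraries, and 10 of 30 alternative settings ended the call, such as leaving out batch 4 (−0.11). ASPM at −0.020 ± 0.045 and NUSAP1 at 0.012 ± 0.039 were not called (adjusted p 0.734 and 0.819), and both changed sign under other settings. TOP2A, the topoisomerase that untangles sister chromatids, was at 498, 493.5, 512 and 490 CPM in batch 2 and at 345 to 488 CPM (median 438) elsewhere. It was the only gene besides CDC25C to lie above all other libraries (0.23 ± 0.046, 1.17-fold higher, edgeR adjusted p 0.000667). The difference was 0.38 against batch 1, 0.17 against batch 3 and 0.13 against batch 4, where it was not called (edgeR adjusted p 0.0784), and 0.16 without batch 1.

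For most of the genes the direction was the same in the 4 groups. Batch 2 was below the mean of the other batches in 4 of 4 groups for 27 of the 39 genes (background 31.8%) and above in 4 of 4 for 6 (background 35.2%), namely CDC25C, ESPL1, CENPE, AURKB, KIF2C and TOP2A. The median over the set was −0.12 for WT, −0.18 for FL, −0.16 for NCTAD and −0.10 for cIDR. Whether the constructs' difference from WT was another in batch 2 was tested as an interaction, which called 0 of the 39 genes by edgeR (background 0.00512%), and 0 had an unadjusted p under 0.05 (1.56%). KIF4A at −0.13 ± 0.093 and SPC25 at 0.13 ± 0.13 had the smallest p (adjusted p 1), and the test rests on 1 WT library in batch 2.

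Batch 2 was also compared with each other batch. Against batch 1, 21 of the 39 genes were called (background 45.8%), against batch 3, 22 (47.1%), and against batch 4, 25 (45.5%). The lower genes numbered 18 (background 23.5%), 18 (23.3%) and 23 (22.7%). On log2(TPM + 1) and log2(TPM + 0.1) limma called 10 genes against batch 3 (25.6%, background 35.5% and 34.6%). CDC20 was lowest in each comparison on counts, at −0.54, −0.48 and −0.50. Between batches 3 and 4, 0 of the 39 genes and 0% of all genes were called by edgeR, and none of the 39 had an unadjusted p under 0.05 (background 2.17%). These comparisons share the libraries of batch 2.

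Most mitotic genes examined outside the set were lower in batch 2 too. Of the 108 genes outside it, 74 were lower and 7 higher, with a median of −0.23. Of the 28 other kinetochore genes, 19 were lower and 0 higher, led by PMF1 (−0.81 ± 0.058), SKA3 (−0.64 ± 0.046) and SPDL1 (−0.52 ± 0.037). Condensin and cohesin genes were lower in 13 of 17 and higher in 1, with STAG1 at −0.56 ± 0.054 and the condensin II subunit NCAPH2 at −0.53 ± 0.056. APC/C genes were lower in 9 of 17 and higher in 1, with ANAPC7 at −0.55 ± 0.046. Among 34 further effectors 25 were lower and 3 higher, among them the spindle protein FAM83D at −0.51 ± 0.056. Of the 12 regulators 8 were lower and 2 higher, with FOXM1, the transcription factor of G2 and M genes, at −0.45 ± 0.041 and TFDP1, the E2F partner, at −0.45 ± 0.046. The background for lower genes was 26.1%.

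Genes of other programmes moved in batch 2 as well. Of 22 S phase genes 19 were lower (background 26.1%) and 0 higher (27.7%), with a median of −0.46, beyond that of the mitotic set. The helicase subunits MCM3 and MCM5 were at −0.77 ± 0.042 and −0.73 ± 0.040. Of 20 hypoxia-responsive genes 18 were higher (background 27.7%) and 0 lower (26.1%), with a median of 1.09. DDIT4, an inhibitor of mTORC1, was at 2.85 ± 0.038, and PDK1, the kinase that restrains pyruvate dehydrogenase, at 2.81 ± 0.085. All cultures are labelled with the same oxygen level. The part of these changes, and of the fibroblast, endothelial and immune markers given above, in the values of the mitotic genes was not tested.

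The motifs shown above were set beside the change in batch 2. Of the 18 genes with both TTTGAA and CCAAT, 8 were called lower and 2 higher (median −0.11), and of the 16 with an entry but not both motifs, 8 were lower and 1 higher (median −0.11). The background was 26.1% lower and 27.7% higher. CDC20 and CDC25C, whose printed promoters both hold the 2 motifs, lay at the opposite ends of the set. With ACGTG the counts were 8 lower and 1 higher of 12, and without it 8 and 2 of 22. No test was made on these counts.

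Batch 1 was also set against batches 3 and 4, where few of the 39 genes were called, at shares not far from the background. Against batch 3, 7 of the 39 genes were called (17.9%, background 14.1%, 8.26% higher and 5.83% lower): AURKB (0.34), UBE2C (0.27), BIRC5 (0.21) and PLK1 (0.18) higher, and HMMR (−0.23), TOP2A (−0.21) and ASPM (−0.19) lower. Against batch 4, 6 were called (15.4%, background 10.1%, 5.98% higher and 4.17% lower): AURKB higher (0.34), and HMMR (−0.27), TOP2A (−0.25), BUB1 (−0.23), ANLN (−0.22) and ASPM (−0.19) lower. The effective transcript length implied by the ratio of count to TPM, relative to the median gene of a library, ran from 0.340 for PTTG1 to 6.06 for ASPM. Across the 39 genes, Spearman's rho between this length and the difference was −0.69 against batch 3 and −0.67 against batch 4, and across all 19530 genes it was −0.32 and −0.22. The genes share libraries and are not independent replicates. Among the 13 shortest, 11 were above 0 against batch 3 (median 0.10), and among the 13 longest 3 were (median −0.11). Most of these genes were not called: UBE2C and AURKB were the called genes among the 13 shortest, and TOP2A and ASPM among the 13 longest. Against batch 4 the calls were AURKB among the shortest and BUB1, ANLN, TOP2A and ASPM among the longest. FL replicate 1 was the most extreme library, with AURKB at 82.9 CPM against 61.8 to 68.4 in the other libraries of batch 1, and TOP2A at 345 against 375.5 to 417. Without it, rho was −0.69 and −0.68, and 5 genes were called in each comparison (background 11.2% and 8.31%). The number called depended on other libraries. Against batch 3 it was 1 without FL replicate 3 (AURKB, background 5.77%), 2 without NCTAD replicate 1 (6.72%) or NCTAD replicate 3 (6%), 3 without cIDR replicate 3 (7.8%) and 0 by edgeR without the NCTAD group (2.46%), where 8 had an unadjusted p under 0.05. Against batch 4 it was 2 without NCTAD replicate 4 (4.35%), 3 without NCTAD replicate 1 (4.74%) and 0 by edgeR without the NCTAD group (2.08%), where 7 had an unadjusted p under 0.05. In TPM, which is scaled for length, rho was −0.55 and −0.45, and limma on log2(TPM + 1) called 1 gene in each, AURKB against batch 3 (background 2.71%) and TOP2A against batch 4 (2.05%). In the comparison of batch 2 with the others rho was 0.24 for the 39 genes and −0.13 for all genes. Against batch 1 alone it was 0.47 (all genes −0.025), and against batch 3 alone 0.029 (−0.197). For cIDR against NCTAD it was −0.45 (−0.11), and for cIDR against WT −0.37 (−0.015). The comparisons with batch 1 share its libraries.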

How the data were processed

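RNA was measured in 16 libraries (poly(A)-selected, stranded, 250 ng of RNA, 13 PCR cycles, per the labels' protocols). The submitters' processing notes name fastp, STAR, Salmon, featureCounts and GRCh38, without versions, roles or order; the annotation release is not given in the sources used here. The table of deposited estimated counts per gene bears Salmon in its name, and the deposited TPM values are scaled by the authors for transcript length and to the same sum per library. Column names of these tables differ from the sample labels (BE2c for the line, CTRL for WT, WT for FL, NTAD for NCTAD); groups follow the labels, through the library names given there.

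Of the estimated counts 13.1% were not whole (tolerance 0.001), and all were rounded. Genes were filtered with filterByExpr by group, which left 19530. The 6 group comparisons used edgeR 4.0.16 and its quasi-likelihood test (R 4.3.3, TMM, 1 model over 16 libraries with group as the only term), and batches in a model with group and batch. Calls had a Benjamini-Hochberg adjusted p under 0.05 over all tested genes. SE is the log2 difference divided by the square root of F; a prior count of 2 was added for log2 CPM. The batch number pairs libraries across groups, per the labels: deviations from group means correlated at a mean r of 0.308 (0.0674 to 0.712) within a number and −0.0945 between numbers, and the fit with the number as a block is an alternative. Replicates differed by more than sampling noise (chi-square per degree of freedom of at least 7.25).

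Other alternatives were DESeq2 1.42.0, limma 3.58.1 on log2(TPM + 1) and log2(TPM + 0.1), other size factors, a minimum of 10 counts in each library, no filter, and libraries, batches or groups left out. Scripts were tested on simulated data. Fold changes are named for the 2 highest and 2 lowest of the genes in each comparison between groups, for the same number in each role in batch 2, for the 2 smallest p in the interaction, and for the 3 smallest adjusted p of each list outside the set; further genes were named after their values were seen. The members and lists were chosen with earlier results of these data known. One marker gene is not reported here.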

Additional observations from a re-analysis of the deposited data

Results flagged for a closer look

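Within each group of 4 libraries, a library far from the other 3 was looked for in each of the 39 genes, by Dixon's ratio of its gap to the group's range, at the 95% critical value. This gave 14 cases in 156 tests, and 11 of the 14 were libraries of batch 2. The rule was not run over all tested genes, of which 53.9% were called in batch 2 by edgeR. The tests also share libraries, so no excess can be read from this count.

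The level of batch 2 was low for BUB1B in WT (6.89 log2 CPM, nearest other library 7.17), NCTAD (6.83, nearest 7.17) and cIDR (6.81, nearest 7.14). It was low for CENPF in WT (7.77, nearest 7.96) and FL (7.80, nearest 8.03), and for SPC25 in FL (3.70, nearest 4.19). In cIDR it was low for CCNB1 (7.55, nearest 7.83), CDC20 (5.93, nearest 6.42) and KIF4A (5.49, nearest 5.88). It was high for CDC25C in WT (3.89, nearest 3.48) and in cIDR (4.01, nearest 3.59).

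The other 3 cases were high: CDK1 in cIDR replicate 4 (6.94, nearest 6.87), CENPA in WT replicate 3 (5.25, nearest 4.97) and SPC24 in FL replicate 1 (6.30, nearest 5.83).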

How the results depend on the processing

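The group comparisons called 0 of the 39 genes under every alternative run, the replicate block among them, so the pairing by batch changed no call in the set. It raised the calls over all genes from 2, 5, 2, 0, 0 and 0 (the 3 comparisons with WT, then NCTAD against FL, cIDR against FL and cIDR against NCTAD) to 20, 89, 95, 0, 6 and 1; DESeq2 gave 11, 17, 8, 2, 0 and 3, and with the block 58, 168, 156, 12, 46 and 21. In batch 2, 15 of the 23 called genes were called under all 30 alternatives and 20 under the 28 on counts (exceptions ANLN, CENPE and NUF2). Depth added a counting SD of 12.9% (TOP2A) to 84.8% (CDC25C) of the SD that remained between libraries. Results on limma with TPM, on group-wise and batch-wise omissions and on left-out libraries follow; the cause of each change was not tested.

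With log2(TPM + 1) and log2(TPM + 0.1), 13 and 13 genes of the set were lower in batch 2, and 81.3% of called genes in the set and 35.8% and 36.4% of all called genes were lower, against 87.0% and 48.5% on counts. Differences in batch 2 became 0.0099 and 0.010 for CDK1, 0.021 and 0.022 for BUB1, 0.024 and 0.024 for PTTG1, and −0.038 and −0.039 for ESPL1. HMMR in cIDR against FL became −0.025 and −0.024. Batch 2 against batch 3 gave 10 and 10 called genes (35.5% and 34.6% of all genes), batch 1 against batch 3 gave 1 and 1, and batch 1 against batch 4 gave 1 and 2. Without the low-count filter the median of all genes in batch 2 was 0.11. With at least 10 counts in every library PTTG1 was at 0.0045 and ASPM at 0.0070 there.

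Without batch 1, NCTAD against WT for SPC25 was 0.0076 (0.017 with the block), NCTAD against FL for SPC24 was 0.026 (0.026), cIDR against FL for AURKB was 0.0045 (0.0070), and in batch 2 TTK was −0.011 and PTTG1 0.021. Without batch 3, SPC25 in NCTAD against WT was 0.0045 (0.016 with the block), and in batch 2 ASPM was 0.0019 and NUSAP1 −0.0057. Without batch 4, ASPM in NCTAD against WT was 0.00061, and in batch 2 BUB1 was 0.017 and ASPM 0.017. In batch 2 ASPM was 0.0018 without the WT group and 0.010 without NCTAD, and TTK was −0.013 and PTTG1 0.030 without FL. Batch 1 against batch 3 called 3 genes without FL and 0 without NCTAD, and batch 1 against batch 4 called 0 without NCTAD.

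With each library left out in turn, ranges were −0.012 to 0.25 for UBE2C in FL against WT, −0.095 to 0.032 for ASPM, −0.13 to 0.034 for SPC25 and −0.0063 to 0.19 for UBE2C in NCTAD against WT, −0.19 to 0.026 for AURKB and −0.13 to 0.065 for SPC24 in NCTAD against FL, −0.16 to 0.047 for AURKB in cIDR against FL, and −0.071 to 0.12 for CDC25C in cIDR against NCTAD. With the block, SPC25 in NCTAD against WT turned to 0.023 without WT replicate 1 and 0.021 without NCTAD replicate 3, ASPM to 0.0075 without WT replicate 4, and SPC24 in NCTAD against FL to 0.043 without FL replicate 1. In batch 2 the higher genes numbered 2 to 5 (5 without FL replicate 1), NUSAP1 ranged from −0.0054 to 0.024, PTTG1 from −0.059 to 0.024 and TTK from −0.019 to 0.041. Batch 1 against batch 3 called 1 to 9 genes, with 1 without FL replicate 3, 2 without NCTAD replicate 1 or 3 and 3 without cIDR replicate 3. Batch 1 against batch 4 called 2 to 7, with 2 without NCTAD replicate 4 and 3 without NCTAD replicate 1.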
